A study of Mus musculus with 4 samples.

Results

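Albumin (Alb), alpha-fetoprotein (Afp) and transthyretin (Ttr) are secreted proteins of the liver, and Alas2, Tfrc and Slc4a1 serve haem synthesis, iron uptake and the red cell membrane. These 6 genes were taken as types made largely by cells that do not descend from Pdx1-positive pancreatic progenitors, and every deposited m6A site that named one of them was collected. They carried 11 of the 14451 listed sites and were 6 of the 5934 genes named in either list. The genes were selected on their presence in these lists, with KO and WT listing known, so their numbers of sites are a description and were given no test.

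The sites came from whole pancreas of mouse embryos at E15.5, a day of embryonic development. In the knockout (KO) Mettl3, whose product is the catalytic part of the enzyme that writes m6A, was deleted in Pdx1-positive pancreatic progenitor cells, and the other genotype was wild type (WT). Cells outside that lineage, such as blood and vessel cells, were not the target of the deletion, and the sources used here do not give the number of embryos behind a library, the Cre status of WT or the litter. Per genotype there was 1 MeRIP library, from fragments of about 200 nt bound by an m6A antibody, and 1 input library without pull-down. The fold enrichment of a site is the authors' value of MeRIP over input, its score is the authors' peak p-value on a negative log10 scale times 10, and its false discovery rate is in percent. All are properties of 1 peak within 1 list, so KO and WT values stand beside each other with no ratio taken, and no difference can be held against a spread between replicates.

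N6-methyladenosine is placed on messenger RNA in the nucleus by the Mettl3 and Mettl14 complex and is often found near the stop codon and in long internal exons, where reader proteins can change the stability and translation of the transcript. Hepatocytes secrete albumin, alpha-fetoprotein and transthyretin into plasma, and the fetal liver is also the main site of red cell formation in mid-gestation. Erythroid precursors take up transferrin-bound iron through the transferrin receptor, build it into haem from a pathway that begins with Alas2, and place the anion exchanger Slc4a1 in their membrane. The assignments of Ttr and Tfrc are not strict, because transthyretin is also made by endocrine cells of the islet and the transferrin receptor by most dividing cells.

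All 6 genes had a site in the WT list, and 2 of them, Ttr and Alas2, also had one in the KO list. Of all WT genes 37.9% had a KO site as well, so 2 of 6 lay near that background. The remaining 4 were listed in WT only, as were 62.1% of all WT genes. Both genes with a KO site also had a WT site, and of all KO genes 30.6% were listed in KO only. The KO list held 2 sites of these genes among 3937 in all, and the WT list, which is longer, held 9 among 10514. Both KO sites lay on a WT site of the same gene. A WT site overlapped 32.6% of all KO sites, a share that includes sites of genes listed in KO only, and 2 sites are few. Of the 9 WT sites 2 were overlapped in KO, against 12.2% of all WT sites. In whole-tissue RNA fewer cells of a type, less RNA per cell and less methylation cannot be told apart from a site list, and transcript levels are not part of these lists.

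The 6 genes had 1 or 2 WT sites each. Alb, Tfrc and Slc4a1 each had 1 WT site, and 0 of these 3 had a KO site, against 26.2% of all genes with 1 WT site. Afp, Ttr and Alas2 each had 2 WT sites, and 2 of these 3 had a KO site, against 40.2% of all genes with 2 WT sites. Each member with a KO site had 1, so no member had more KO than WT sites.

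**Figure D1:**
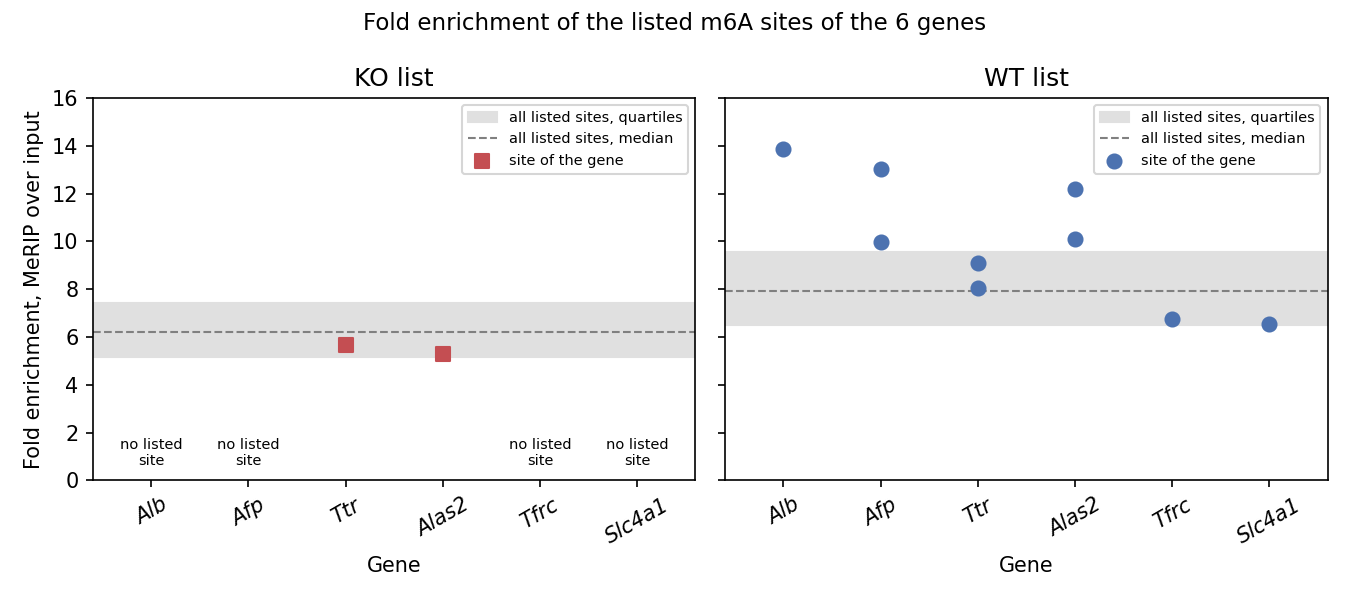
Fold enrichment of MeRIP over input (vertical axis, linear) of each listed site of the 6 genes (horizontal axis), in the KO list on the left and in the WT list on the right; the grey band and dashed line are the quartiles and median of all sites of that list. The 2 KO sites lie below the KO median of 6.20, and 7 of the 9 WT sites lie above the WT median of 7.91.

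The liver genes Alb and Afp had the strongest sites of the group by fold enrichment, and both were listed in WT only. Alb (gene identifier 11657), which encodes the most abundant plasma protein, had no KO site and 1 WT site at chr5:90476460-90476603 on mm10. Its fold enrichment was 13.87, its score 116.96 and its false discovery rate 12.51%. By fold enrichment this was rank 256 of the 10514 WT sites, at percentile 97.5 of the list, while by score it stood at percentile 71.4. Alb is transcribed from the plus strand, and the 144 bp interval ended 1 bp beyond the RefSeq end of the gene, which spans 15.7 kb. The site therefore covered the last stretch of the annotated transcript.

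Afp (gene identifier 11576) encodes the fetal counterpart of albumin, and it too had no KO site. Its first WT site, chr5:90501407-90501621, had a fold enrichment of 9.97, a score of 94.34 and a false discovery rate of 10.82%. The second, chr5:90506521-90506744, reached 13.04, with a score of 105.51 and a false discovery rate of 11.46%. They were placed at percentiles 79.4 and 96.0 of the WT list by fold enrichment. Unlike the Alb site, the stronger Afp site did not reach the gene end: it stopped 2.16 kb before it, with its midpoint at 87.5% of the 18.2 kb gene on the plus strand. Alb and Afp are neighbours of the albumin gene family, 14.1 kb apart. Gc, the vitamin D binding protein gene of the same family, which lies 1003 kb before Alb and was picked out after its values were seen, had 1 KO site (fold enrichment 4.32) and 5 WT sites (best 9.03).

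Ttr (gene identifier 22139), the carrier of thyroid hormone and of the retinol-binding protein, was the liver gene listed in both genotypes. Its KO site, chr18:20673631-20674275, had a fold enrichment of 5.65, a score of 121.82 and a false discovery rate of 58.50%. The overlapping WT site, chr18:20673631-20674326, had 9.09, 117.26 and 12.58% for the same quantities. Both intervals began at the same base, but the KO interval ended 51 bp short of the RefSeq gene end and the WT interval ended exactly on it, so that 645 bp were shared. A second WT site, chr18:20665250-20665507, lay 1.04 kb from the lower-coordinate gene end with a fold enrichment of 8.03 and a false discovery rate of 10.15%. It had no KO counterpart. The KO site stood high in its list by score, at percentile 89.0, and low by fold enrichment, at 36.5. For the overlapping WT site these percentiles were 71.5 and 68.9.

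**Figure D2:**
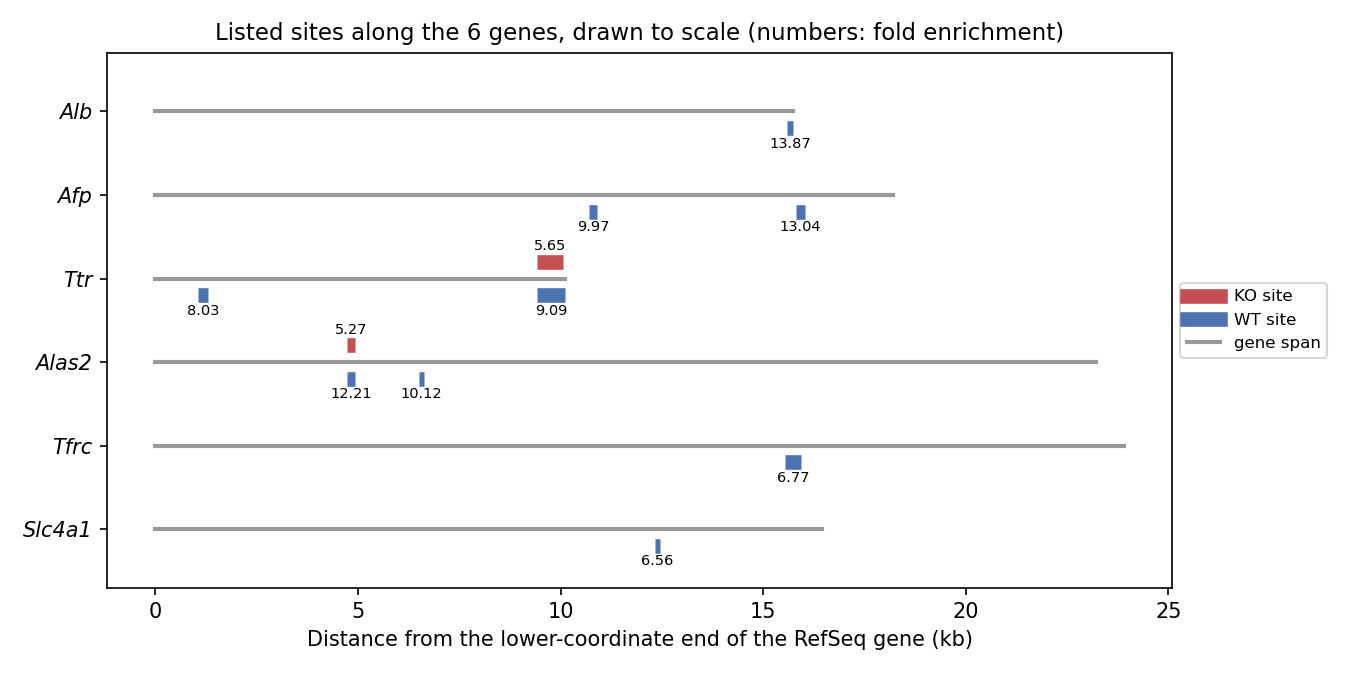
Listed sites along the 6 genes, with distance from the lower-coordinate end of the RefSeq gene in kb on the horizontal axis; bars above the grey gene span are KO sites, bars below it WT sites, and the printed number is the fold enrichment. The 2 KO sites of Ttr and Alas2 lie over WT sites, and the sites of Alb and the long interval of Ttr lie at a gene end.

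Among the erythroid genes Alas2 was listed in both genotypes. Alas2 (gene identifier 11656), the enzyme that starts haem synthesis in red cell precursors, had the same interval in both lists, chrX:150552149-150552344, 196 bp long. The fold enrichment there was 5.27 in KO and 12.21 in WT, and the score was 73.45 in KO and 138.80 in WT. The false discovery rate was 48.81% in KO and 15.10% in WT. A further WT site without a KO counterpart, chrX:150553933-150554043, had a fold enrichment of 10.12, a score of 95.19 and a false discovery rate of 10.90%. By fold enrichment the KO site was at percentile 27.3 of the KO list, and the 2 WT sites were at 93.8 and 81.0 of the WT list. Both intervals lay in the front part of the RefSeq gene span, with midpoints at 20.8% and 28.3% of 23.2 kb on the plus strand.

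Tfrc and Slc4a1 had the weakest WT sites of the 6 genes by fold enrichment and no KO site. Tfrc (gene identifier 22042), the receptor that brings transferrin-bound iron into the cell, had 1 WT site at chr16:32624442-32624826, with a fold enrichment of 6.77, a score of 55.78 and a false discovery rate of 10.19%. It stood at percentile 29.7 by fold enrichment and 11.9 by score, close to the lower limit of the list, which lies at a score of 50. The midpoint of the site lay at 65.9% of the 23.9 kb gene on the plus strand. The file tied it to a UCSC transcript, whereas the sites of the other 5 genes were tied to RefSeq transcripts. Slc4a1 (gene identifier 20533), the chloride and bicarbonate exchanger of the red cell membrane, had 1 WT site at chr11:102361141-102361261. Its fold enrichment was 6.56, its score 65.64 and its false discovery rate 9.87%, and by fold enrichment it stood at percentile 26.2.

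The WT sites of the 6 genes ran from 6.56 to 13.87 in fold enrichment, with a median of 9.97 against 7.91 over all WT sites. In order of best WT fold enrichment the genes were Alb, Afp, Alas2, Ttr, Tfrc and Slc4a1. Of the 9 sites 7 lay above the list median by fold enrichment and 6 by score. The false discovery rates of the 9 sites ran from 9.87% to 15.10%, against 48.81% and 58.50% for the 2 KO sites. This gap was one of the whole lists, whose medians were 48.4% in KO and 10.6% in WT, and no KO site of any gene had a rate below 45.9%. Of all sites, 70.1% in KO and 97.1% in WT had a rate of at most 50%, which the KO site of Ttr did not reach. Interval lengths of the WT sites ran from 111 to 696 bp, with a median of 215 bp against 203 bp over the list. The sources used here do not say whether an interval follows the peak itself or the outline of an exon.

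**Figure D3:**
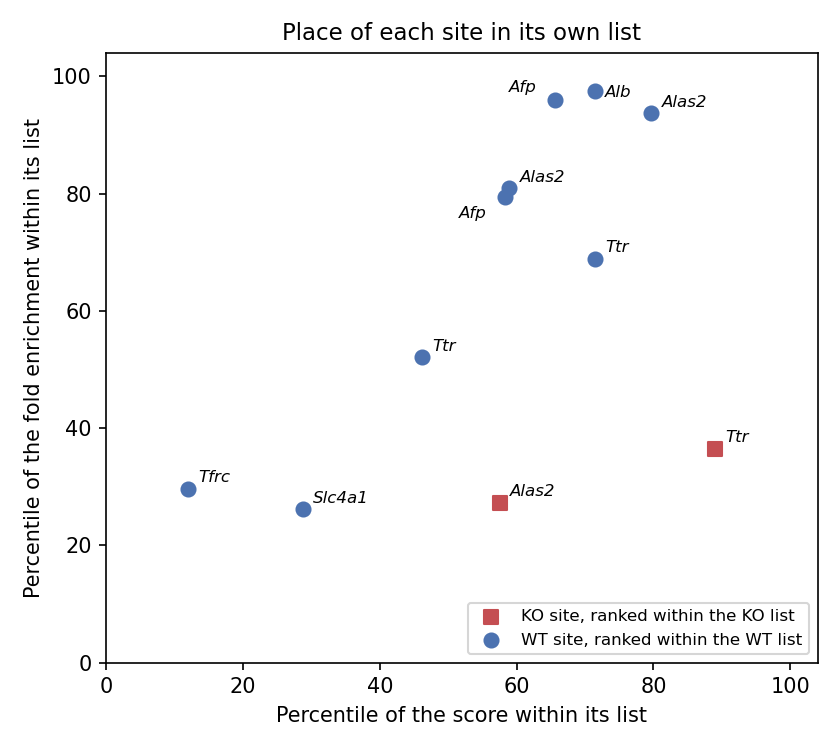
Percentile of each site's score (horizontal axis) and fold enrichment (vertical axis) within its own list, KO as squares and WT as circles. The KO sites of Ttr and Alas2 stand higher by score (89.0 and 57.5) than by fold enrichment (36.5 and 27.3), and Tfrc and Slc4a1 stand low by both.

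None of the 11 intervals overlapped a listed site of another gene in the same list, so each site had 1 gene name. Of the 6 genes 4 have an entry in the RefSeq promoter table for GRCm38, the assembly of mm10, namely Alb, Afp, Tfrc and Alas2, and 0 of their 7 sites lay in these promoter windows. The bases of the sites themselves were not analysed here, so the sequence motif of the methyltransferase was not searched.

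The caller's peak numbers add a measure of what lay near these genes but was not listed. In both files the numbers increased along each chromosome for every pair of neighbouring sites, 3916 pairs in KO and 10493 in WT. The highest number in the list was 99502 in KO and 94812 in WT, so the listed sites made up 3.96% of the numbers in KO and 11.1% in WT. The sources used here do not say how a numbered peak became a listed mRNA site. In WT, 2 unlisted numbers lay between the sites of Afp, 1 lay between those of Ttr and 0 between those of Alas2.

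Each gene was also set in the stretch between the nearest listed KO sites on either side of it, which by its construction holds no KO site of another gene. Around the genes without a KO site, numbered but unlisted KO peaks were present. With 3.96% of the KO numbers listed, this is no trait of these genes, and it held around Ttr and Alas2 too. The nearest listed KO sites on either side of Alb and Afp were in Gc and Uso1, 2735 kb apart, and 102 KO peak numbers fell between them. The same stretch held 21 WT sites in 8 genes, 6 of them other than Alb and Afp. Around Tfrc a stretch of 433 kb held 42 unlisted KO numbers and 6 WT sites in 5 genes. Around Slc4a1 a stretch of 713 kb held 65 unlisted KO numbers and 4 WT sites in 4 genes. Whether any of the unlisted numbers lay inside Alb, Afp, Tfrc or Slc4a1 cannot be read from the files.

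For Ttr the stretch ran between the listed KO sites of Dsc2 and Garem, 1083 kb apart, and WT had 10 sites in 4 genes there. For Alas2 it ran between those of Amot and Wnk3 on the X chromosome, 5752 kb apart, and WT had 8 sites in 7 genes there. Unlisted KO numbers in these stretches were 57 for Ttr and 81 for Alas2.

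Genes most like each member were taken as those with the same number of KO and of WT sites and the nearest best WT fold enrichment, over the 2 lists. Among 278 genes with 1 KO and 2 WT sites, Ddx23 and Gatad2a came nearest to Ttr, both with a best WT fold enrichment of 9.10, and had KO values of 4.40 and 3.22. For Alas2 the nearest were Gfm2, with 5.78 in KO and 12.17 in WT, and Arglu1, with 4.60 in KO and 12.26 in WT. Rtel1 and Spock2 shared the WT value of Alb, 13.87. Gtf3c6 (13.10) and Vdac3 (13.11) came nearest to Afp in WT. Ap5b1 and Sntb1 shared the WT value of Tfrc, 6.77, and Axin1 and Csnk1a1 that of Slc4a1, 6.56. The pattern of 0 KO sites and 1 WT site was common, with 1901 genes, and that of 0 and 2 was found in 615.

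In the deposited gene annotation no term was carried by all 6 genes, and the terms carried by most of them covered 4. Alb, Afp, Ttr and Tfrc carried the term extracellular space. Its 234 WT genes had a KO site in 43.2% of cases, against 37.9% of all WT genes. Alb, Tfrc and Slc4a1 carried blood microparticle, with 10 KO genes and 19 WT genes. Of these 5 were in both lists, 26.3% of the WT genes. Alas2 and Tfrc carried cellular iron ion homeostasis, with 5 KO genes, 8 WT genes and 3 in both, 37.5% of the WT genes. In the pathway of porphyrin metabolism, which includes Alas2, 5 genes had a KO site and 10 a WT site. In both lists were 3, or 30% of the WT genes. The last 3 terms hold few genes, and all 4 shares stand beside the same 37.9%.

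The other genes of 5 related lists (liver secreted proteins, red cell membrane, haem and globin, erythroid regulators, and iron handling) were counted in the same way. Of 190 such names, 33 had a KO site and 49 a WT site, and 22 were in both lists. That was 44.9% of those listed in WT, against 37.9% of all WT genes, and 66.7% of those listed in KO, against 69.4% of all KO genes. The share of WT genes in both differed by list, at 68.8% for iron handling and 50% for erythroid regulators. It was 33.3% for red cell membrane, 30.8% for liver secreted, and 25% for haem and globin genes. The 6 members are left out of these counts.

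Liver secreted genes other than the members were listed in KO only in 5 cases, in both in 4 and in WT only in 9. So 30.8% of those listed in WT were listed in KO too, against 37.9% of all WT genes. The iron carrier gene Trf, whose product is the ligand of the transferrin receptor, had 2 KO sites (best fold enrichment 7.10) and 2 WT sites (best 6.14). Cfi, a regulator of complement, had no KO site and 4 WT sites (best 12.63), and Ambp, which encodes alpha-1-microglobulin and bikunin, had none in KO and 5 in WT (best 10.54). Proc, the gene of the anticoagulant protein C, had 1 KO site (7.92) and none in WT, and Igfbp2 had 2 (best 6.20) and none. Serpina1c was in both lists. It has near-identical copies, and the sources used here do not say how reads that match several copies were treated, so its sites are uncertain. Of the list of 70 names, 49 had no site in either genotype, among them the liver plasma protein genes Apoa1, Apob, Fgb and Ahsg.

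Haem and globin genes other than Alas2 were listed in KO only in 2 cases, in both in 2 and in WT only in 6. Of those listed in WT, 25% were listed in KO too, against 37.9% of all WT genes. The enzyme that closes the haem pathway, encoded by Fech, had 1 KO site (3.65) and 2 WT sites (best 8.51), without an overlapping pair. Slc25a37, the mitochondrial iron importer of erythroid cells, had 2 KO sites (best 12.84) and 3 WT sites (best 8.45). Uros (11.52) and Clpx (11.48), which encode a haem pathway enzyme and part of a mitochondrial protease, were listed in WT only. Alas1, the housekeeping form of Alas2, had 1 KO site (6.61) and none in WT. Of the globin genes, Hbb-bs had no KO site and 1 WT site (4.34), at a false discovery rate of 54.73%. The other globin genes of the list had no site in either genotype.

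Red cell membrane genes other than Slc4a1 were listed in both genotypes in 2 cases and in WT only in 4. That was 33.3% of those listed in WT, against 37.9% of all WT genes. The 2 in both lists were the cytoskeleton genes Tmod3 (2 KO sites, best 6.32, and 3 WT sites, best 11.96) and Add1 (1 KO site, 5.87, and 4 WT sites, best 7.45), which are also active outside red cells. Gypc (8.96), Sptb (6.17) and the blood group gene Kel were among those listed in WT only, as was Slc4a1. Erythroid regulators were listed in KO only in 2 cases, in both in 4 and in WT only in 4, so 50% of those listed in WT were in both. Gata1, Klf1 and Epor, which help define the erythroid lineage, had no site in either list. A missing site says nothing of the level of a transcript.

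Of the 5 related lists, iron handling had the largest share of genes found in both genotypes. Of those other than Tfrc, 2 were listed in KO only, 11 in both and 5 in WT only, so 68.8% of those listed in WT were listed in KO too, against 37.9% of all WT genes. The list held 43 WT sites in 17 genes, Tfrc included, which is 2.53 per gene against 2.07 over all WT genes, and the part of this in the count was not tested. The iron regulatory proteins, which bind elements in the transcripts of Tfrc and Alas2, were both in both lists. Aco1 had a fold enrichment of 16.06 in KO, at a false discovery rate of 100%, and of 11.65 in WT. Ireb2 had 6.03 in KO and a best of 8.91 in WT. Among the listed genes of clathrin uptake, the route of the transferrin receptor, Cltc (3 KO and 4 WT sites), Dnm2 (1 KO and 3 WT sites), Ap2b1 (4 KO and 7 WT sites) and Ap2a1 (1 KO and 1 WT site) were in both lists. The KO and WT sites of Ap2b1 formed no overlapping pair. Eps15 (3 sites, best 15.23) and Picalm (5 sites, best 8.78) were in WT only. Slc40a1, the iron exporter, was listed in WT only with 12.65.

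**Figure D4:**
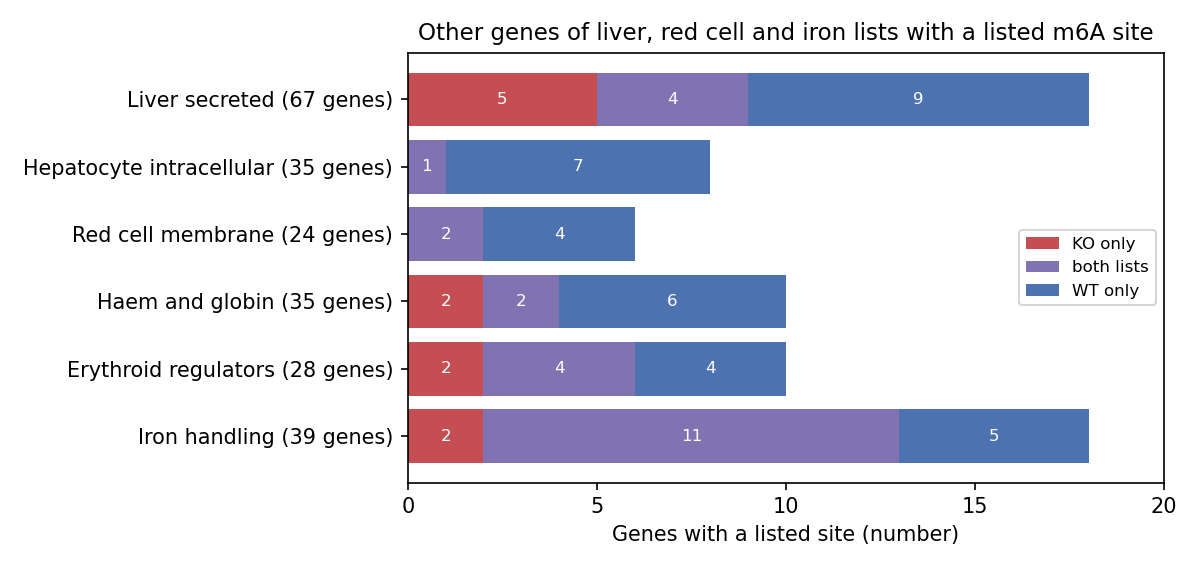
Number of genes with a listed site (horizontal axis) in each related gene list (vertical axis), without the 6 members, split into genes listed in KO only, in both lists and in WT only. Iron handling has 11 genes in both lists and 5 in WT only (68.8% of its WT genes in both), and liver secreted genes have 4 and 9 (30.8%). Of all WT genes 37.9% are in both lists.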

How the data were processed

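The submitters' processing notes name cutadapt 1.9.3, HISAT2 2.0.4 and the build mm10. Each genotype has 1 list of sites, with peak names that begin with MACS, per the file headers. The sources used here give neither the caller's version and settings nor the filter that led to mRNA sites. The deposited score is 10 times the negative log10 p-value, the deposited fold enrichment a ratio (MeRIP over input), and the deposited false discovery rate is read as percent because it reaches 100. That each MeRIP library was set against its own input is assumed from the labels. Depth is unknown.

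Sites were assigned by the gene name in the file, with starts taken as 0-based and printed 1-based, and were called overlapping from 1 bp on (Python 3.11.15, pandas 2.3.3). Gene ends and strands came from RefSeq tables of GRCm38, in which 6 and 4 of the 6 genes were found. Percentiles are ranks within 1 list. No test was run, as libraries were not replicated. The overlap code was tested on simulated data. The genes, the related lists and the alternatives were chosen with earlier results of these data known. The rule for named genes took all 6 members, the 2 genes most like each, and up to 4 genes of each related list per listing class, by fold enrichment. Gc, Hbb-bs, Sptb, Ireb2, Cltc, Dnm2, Apoa1, Apob, Fgb, Ahsg, Gata1, Klf1 and Epor lie outside it and were picked after their values were seen. Not every gene within the rule is reported here.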

Additional observations from a re-analysis of the deposited data

How the results depend on the processing

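The listing of the 6 genes was recomputed under 8 alternatives, and the WT listing of all 6 was kept under updated names, a false discovery rate of at most 50% and a fold enrichment of at least 5. At a false discovery rate of up to 50%, 1 member (Alas2) kept 1 KO site, since Ttr dropped out, and 1 KO and 1 WT member site overlapped. When an identical start and end was needed, 1 KO and 1 WT member site matched, those of Alas2. Shortening the WT list to the KO length by fold enrichment removed Tfrc and Slc4a1 from it and left 6 member sites, and keeping the upper 75% of each list by score removed Tfrc. Under the shortened WT list 2 liver secreted, 1 red cell membrane, 1 haem and globin and 1 erythroid regulator gene were in both lists, members included, against 5, 2, 3 and 4 with full lists, because fewer WT sites were kept. With an overlapping pair needed, 2 erythroid regulators, 2 haem and globin genes and 9 iron handling genes were in both, against 4, 3 and 11. Of 92 recomputed values 81 were the same or within 1.5 times, a count that is no measure of stability. It includes best fold enrichments, which a filter leaves unchanged wherever it keeps a gene's strongest site. It also leaves out the genes that a filter removed. No paired analysis was possible because each genotype has 1 library of each kind and no test was run. Depth per site is unknown and limits every statement on an unlisted site.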

Other observations

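Genes of further cell types were listed as well. Of 35 hepatocyte genes that act inside the cell, 1 (Hnf4a) was in both lists without an overlapping pair and 7 were in WT only, led by Ass1, a urea cycle enzyme, with 5 WT sites (best 10.93). So 12.5% of the 8 listed in WT were listed in KO too, against 37.9% of all WT genes. Some of the 8 genes, such as Slc2a2 (10.70), Prox1 (8.72) and Hnf4a (5.59 in KO and 8.02 in WT), are also expressed in pancreas. Of 20 leukocyte genes, 2 were listed in KO only, Runx1 (7.83) and Csf1r (6.76), and 17 had no site in either list. The remaining gene, Cd34, was in both, with 2 KO sites (best 5.33) and 2 WT sites (best 10.39), without an overlapping pair. So 33.3% of the 3 leukocyte genes listed in KO were listed in WT too, against 69.4% of all KO genes, and 3 genes are few.

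Of 26 pancreas epithelium genes, whose cells the deletion targets, 3 were listed in KO only, 5 in both and 7 in WT only. Of those listed in WT, 41.7% were listed in KO too, against 37.9% of all WT genes. Chgb, a granule protein of endocrine cells, had 3 KO sites (best 7.63) and 4 WT sites (best 10.32). Nkx6-1, a beta cell transcription factor, had 1 KO site (6.02) and 1 WT site (5.96).

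Myb, a regulator of early blood progenitors, had more sites in KO than in WT, with 4 KO sites (best 12.12) and 1 WT site (5.90). Ube2o, an enzyme that clears proteins from maturing red cells, had 1 KO site (9.82) and none in WT, as had Bnip3l (5.13). Other erythroid regulators went the other way: Stat5a (9.97), Xpo7 (8.61), Zfpm1 (7.96) and Mkrn1 (7.32) were listed in WT only. Stat5b and Bcl11a had 1 site in each list, and Jak2 had 1 KO and 2 WT sites. The sites of Bcl11a overlapped, and those of Stat5b and Jak2 held no overlapping pair. The share of all genes with more KO than WT sites is not given here.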
